A study of Mus musculus with 12 samples.

Results

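The antioxidant genes described here are 9 genes of the enzymes that remove superoxide and peroxide, or that recharge those enzymes, and Nfe2l2, which encodes the transcription factor NRF2. The genes, taken by name, are Sod1, Sod2, Cat, Gpx1, Gpx4, Prdx1, Prdx5, Gsr, Txnrd1 and Nfe2l2. Of these 10 genes, 9 were found among the 23621 symbols of the count table and 9 passed the filter on low counts. Prdx5 was not analysed here.

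The 12 RNA sequencing libraries were made from neutrophils of Balb/c mice, all female and 8 weeks old. The LDN group (n = 4) held low-density neutrophils and the HDN group (n = 4) high-density neutrophils, both from the peripheral blood of mice carrying liver metastases. The Naive group (n = 4) held bone marrow neutrophils of mice labelled naive, with no tumour named. No genotype, transgene or drug is named for any group, and the labels give neither the tumour cells used nor how neutrophils were purified. LDN and HDN thus differ in density within one tissue, while each comparison with Naive sets blood against marrow and mice with metastases against naive mice at once, so that tissue and tumour cannot be told apart. Nothing in the labels says that the libraries of a group are separate animals, and the p-values speak only for the spread among these libraries.

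NADPH oxidase of neutrophils makes superoxide in large amounts, and the cell has to live beside it. Superoxide dismutases turn superoxide into hydrogen peroxide, and catalase, glutathione peroxidases and peroxiredoxins take the peroxide away. Glutathione reductase and thioredoxin reductase then return glutathione and thioredoxin to their reduced state with electrons from NADPH. NRF2 drives many of these genes through antioxidant response elements, short DNA motifs that it binds together with a small MAF protein. Its partner KEAP1 holds it down by sending it for degradation, so that NRF2 is controlled to a large extent as a protein and the Nfe2l2 transcript is no measure of its activity.

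Levels are given as CPM, which are counts in proportion to the TMM-scaled library size (mean ± SD, n = 4 per group), and differences as log2 fold changes ± SE, tested in edgeR by quasi-likelihood. A gene was called higher or lower at a Benjamini-Hochberg adjusted p under 0.05 over the 10604 genes tested. Library totals lay between 23181686 and 26456768 counts in LDN, between 20049857 and 30044508 in HDN and between 18113922 and 27741885 in Naive. The smallest count behind any value of these 9 genes was 246 reads, for Cat in HDN 7. HDN 7 had the highest scaling factor (1.28, against 1.01 to 1.05 in the other HDN libraries) and gave the lowest HDN value for 7 of the 9 genes, while HDN 4 gave the highest for 6. The column names of all LDN and HDN libraries carry a date-like tag that Naive columns lack, so a difference in handling cannot be told apart from the comparisons with Naive.

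Low-density neutrophils carried more transcript of 5 peroxide-removing and recharging enzymes than high-density neutrophils. Cat, Prdx1, Gsr, Txnrd1 and Gpx1 were called higher in LDN against HDN, by 3.31-fold for Cat down to 1.37-fold for Gpx1, and 0 of the 9 were called lower. For each of these 5 genes all LDN libraries lay above all HDN libraries, as they did in one direction or the other for 39.2% of the genes tested. The dismutase genes Sod1 and Sod2, the lipid peroxide-reducing Gpx4 and Nfe2l2 itself did not pass. With the replicate number as a block, which the check of pairing allows, 6 were higher and 1 lower, Sod1 joining the first and Nfe2l2 being the second. Over all genes that blocked fit called 5709, with 2861 higher and 2848 lower in LDN. It used the LDN and HDN libraries alone with its own low-count filter. Its calls are therefore not shares of the 10604 genes, and its own total is not given here. Calls were common without the block too, with 46.3% of all genes tested called, 26.0% higher and 20.3% lower in LDN. The median log2 fold change was 0.45 over the 9 genes and 0.02 over all genes.

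Against Naive marrow neutrophils, LDN had 6 genes higher (Nfe2l2, Prdx1, Gpx1, Cat, Txnrd1 and Sod2) and 0 lower, beside 27.4% and 26.8% of all genes, 54.2% together. LDN and Naive libraries were fully apart for those 6 genes, beside 55.3% of all genes, and the median log2 fold change was 0.67 over the 9 genes and 0.01 over all. HDN against Naive was mixed, with Nfe2l2, Sod2 and Gpx1 higher and Cat and Gsr lower, beside 30.0% and 29.9% of all genes, 59.8% together. HDN and Naive libraries were fully apart for 4 of the 9 genes, all of these but Gpx1, beside 53.3% of all genes, and the medians were -0.06 and 0.04. These 3 comparisons share their groups, so their values are set side by side and not counted as separate evidence. In the authors' deposited tables of DESeq2 comparisons all 27 calls, 9 genes in 3 comparisons, fell on the same side as here.

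The neutrophil marker list (9 of 9 tested) summed to 174100 to 234300 CPM in LDN, 76020 to 125600 CPM in HDN and 162100 to 189800 CPM in Naive. Most of each sum was S100a8 and S100a9, and the members did not all move alike. Of the 9, 6 were called higher and 1 lower in LDN against HDN, beside 26.0% and 20.3% of all genes. Csf3r went against most of the list, averaging 3962 CPM in LDN and 8660 CPM in HDN. Transcripts of dividing cells moved with the groups as well. All 8 genes of that list, Mki67 and Top2a among them, were called higher in LDN against HDN, beside 26.0% of all genes. Against Naive all 8 were lower in LDN, beside 26.8% of all genes, and in HDN, beside 29.9%. Sums for these dividing-cell genes were 57.1 to 106 CPM in LDN, 5.41 to 7.76 CPM in HDN and 343 to 521 CPM in Naive. Their part in the differences between groups was not tested. Red blood cell precursors also hold much catalase and peroxiredoxin. Of 9 erythroid markers with a row, 0 passed the filter, and the 4 haemoglobin genes, near-identical copies whose reads counting can lose, had 0 reads in every library. The erythroid sum was 0.0511 to 0.231 CPM in LDN, 0.228 to 0.458 CPM in HDN and 0.650 to 6.66 CPM in Naive, where Slc4a1 averaged 2.72 CPM, beside a floor of 3 reads worth 0.0954 to 0.153 CPM. Monocyte and macrophage markers summed to 496 to 654 CPM in LDN, 436 to 688 CPM in HDN and 652 to 878 CPM in Naive. Of 11 tested members, 7 were called higher and 1 lower in LDN against HDN, beside 26.0% and 20.3% of all genes. Against Naive, LDN had 5 higher and 4 lower, beside 27.4% and 26.8%. HDN had 3 higher and 5 lower, beside 30.0% and 29.9%. Fn1 averaged 176.5 CPM in LDN, 12.6 CPM in HDN and 8.60 CPM in Naive, and F13a1 77.2, 27.5 and 1.50 CPM. Ly6c2 was highest in Naive, at 63.97 CPM in LDN, 13.8 CPM in HDN and 359.7 CPM in Naive. Between the blood fractions Csf1r went against most of the list, averaging 122 CPM in LDN, 367 CPM in HDN and 319 CPM in Naive. Platelet markers summed to 28.6 to 33.9 CPM in LDN, up to 11.7 CPM in HDN and 114 to 125 CPM in Naive. Of the 6 platelet members tested, LDN was called higher than HDN for 5 and lower for 1, beside 26.0% and 20.3% of all genes. Itgb3 made up most of that sum in LDN and Naive, with means of 26.5 (LDN), 3.54 (HDN) and 112.7 CPM (Naive). Itga2b went the other way between the fractions, its HDN mean of 6.84 CPM lying above the 2.31 CPM of LDN. Pf4 and Ppbp were scarce, with highest group means of 0.672 and 0.600 CPM, both in Naive. T cell markers, nearly all of them Cd3d, summed to 31.8 to 47.6 CPM in LDN, 3.47 to 17.9 CPM in HDN and 192 to 266 CPM in Naive. Eosinophil markers summed to 13.8 to 23.2 CPM in LDN, 40.5 to 86.2 CPM in HDN and 14.9 to 63.7 CPM in Naive. Siglecf was nearly all of it in HDN (63.1 CPM on average) and Prg2 most of it in Naive (26.1 CPM), with Epx at 0 in HDN. B cell markers summed to 1.21 to 6.38 CPM in LDN, 0.344 to 2.13 CPM in HDN and 17.4 to 43.8 CPM in Naive, and natural killer markers to at most 2.40 CPM in any library. In bulk RNA, fewer cells of a kind and less RNA per cell cannot be told apart.

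Scaling sets the zero of these differences. With plain library sizes that leave out the 20 most abundant genes in place of TMM, the median of all genes moved by -0.14 in LDN against HDN, by -0.29 in LDN against Naive and by -0.15 in HDN against Naive. The calls then divided as 2245 higher and 2776 lower in LDN against HDN (2761 and 2153 with TMM), 1852 and 3968 in LDN against Naive (2910 and 2840), and 2488 and 3676 in HDN against Naive (3177 and 3167). All 16 calls listed above for the 9 genes kept their direction and passed under that scaling.

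**Figure D1:**
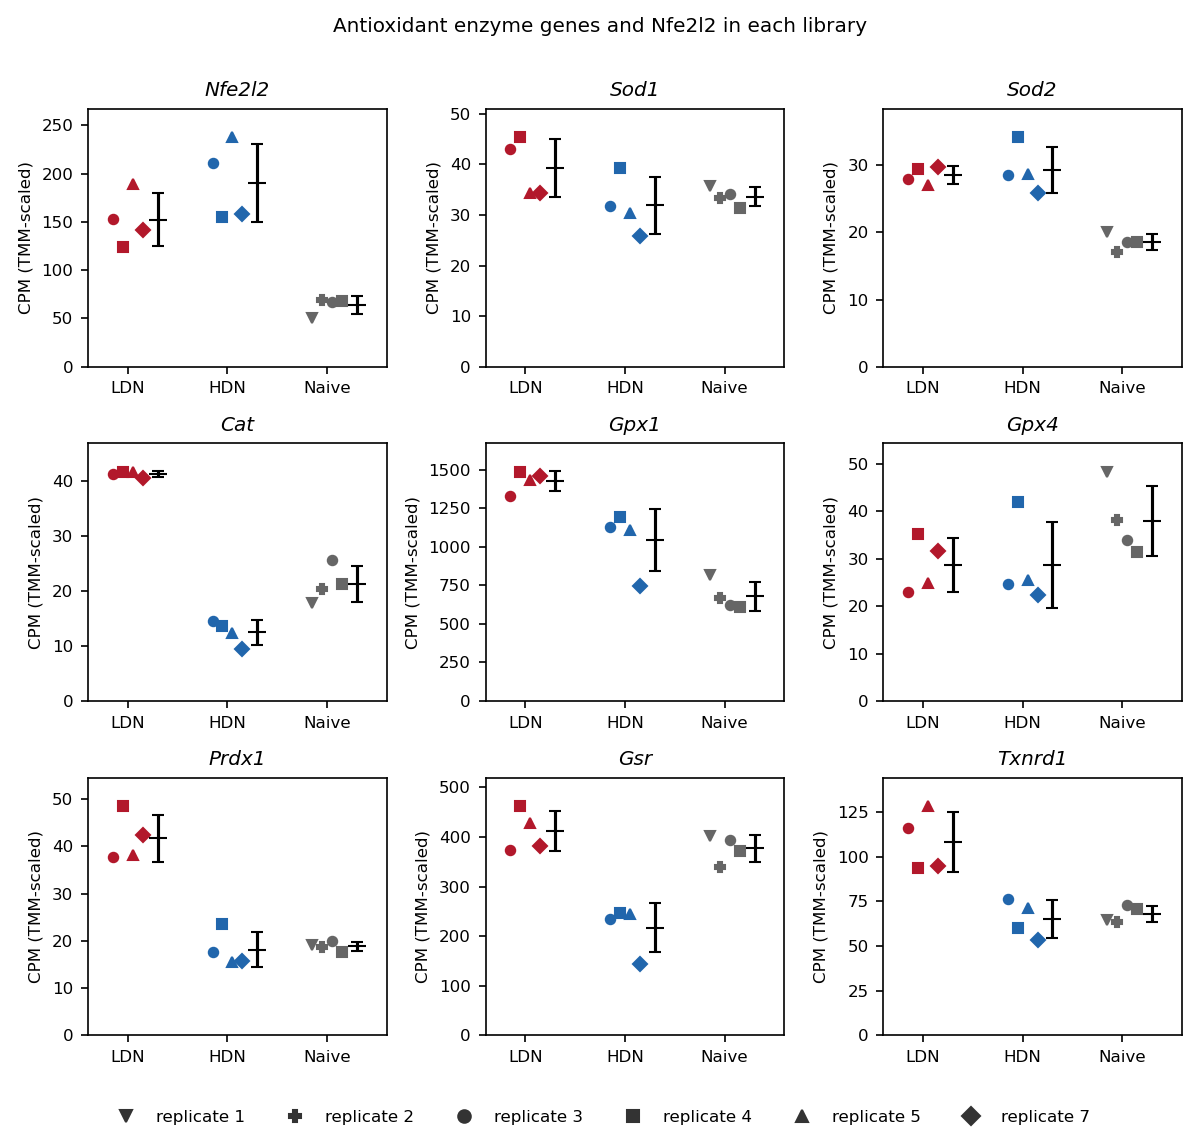
TMM-scaled CPM of Nfe2l2 and 8 antioxidant enzyme genes in each of 12 libraries, with LDN, HDN and Naive from left to right; marker shapes give the replicate number and the black bars the group mean ± SD (n = 4). Cat, Prdx1, Gsr, Txnrd1 and Gpx1 show LDN libraries above every HDN library, whereas Nfe2l2 and Sod2 are high in both blood groups.

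Nfe2l2, the gene of NRF2 itself (chromosome 2, 75675513 to 75704641 on the minus strand in GRCm38, positions here and below from GENCODE M21), was more abundant in both blood groups than in marrow. It stood at 153, 124, 189.7 and 142 CPM in LDN 3, 4, 5 and 7, at 211, 155, 238 and 158 CPM in HDN 3, 4, 5 and 7, and at 50.3, 69.5, 67.1 and 68.1 CPM in Naive 1 to 4. Every blood library lay above every Naive library, while LDN and HDN overlapped. Against Naive the gene was 2.39-fold higher in LDN (log2 fold change 1.26 ± 0.17, adjusted p = 4.14e-05) and 2.99-fold higher in HDN (1.58 ± 0.18, adjusted p = 3.75e-06). Between the blood fractions the difference was -0.32 ± 0.17 (adjusted p = 0.138). With the replicate number as a block it was -0.37 (adjusted p = 0.00791), and LDN was the lower of the pair in all 4 numbers, at -0.47, -0.32, -0.32 and -0.15 on the log2 scale for numbers 3, 4, 5 and 7. The difference also passed without LDN 5 (-0.51, adjusted p = 0.0347) and when scaled without the 20 most abundant genes (-0.46, adjusted p = 0.0337).

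The genes with the profile nearest to Nfe2l2 over the 12 libraries, among tested genes whose mean log2 CPM reached 4, were Fundc1, Arhgap24 and Cxcr2. Likeness was the root mean square difference of centred log2 CPM, which was 0.0988, 0.115 and 0.126. Fundc1, the gene of a mitophagy receptor, stood at 35.6 ± 6.56 CPM in LDN, 42.04 ± 10.2 CPM in HDN and 13.3 ± 1.51 CPM in Naive. Arhgap24, which encodes a GTPase-activating protein, stood at 48.7 ± 7.35 CPM in LDN, 62.8 ± 11.04 CPM in HDN and 19.4 ± 1.52 CPM in Naive. Cxcr2, the chemokine receptor gene that promotes release of neutrophils into blood, stood at 2374 ± 622 CPM in LDN, 2952 ± 667 CPM in HDN and 1064 ± 126 CPM in Naive. All of them share the libraries and the scaling with Nfe2l2. Their means followed the same order, HDN, LDN, Naive, which follows from choosing them by likeness over these same libraries.

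Because NRF2 acts through antioxidant response elements, the promoter windows of these genes are shown where the letters of the element's core occur, with that of Cat as the gene with the largest difference between the fractions. The search was for TGACNNNGC on either strand, GCNNNGTCA being the same letters read from the other strand, with overlapping matches allowed. RefSeq (GRCm38.p6) windows from 250 bases before to 50 bases after the start were found for 8 of the 9 genes, and 4 of the 8 held a match in at least 1 window. The same letters occurred in 3781 of 27025 genes with a window (14.0%) and in 4071 of 32851 windows (12.4%). Txnrd1 has 3 windows and Gpx4 has 4, which gives these genes more chances to match. The 250 bases before the RefSeq start, which can differ from that of GENCODE, are printed 5′ to 3′ along the gene, with the matching letters in capitals.
Nfe2l2 (chr2:75704664-75704913, minus strand): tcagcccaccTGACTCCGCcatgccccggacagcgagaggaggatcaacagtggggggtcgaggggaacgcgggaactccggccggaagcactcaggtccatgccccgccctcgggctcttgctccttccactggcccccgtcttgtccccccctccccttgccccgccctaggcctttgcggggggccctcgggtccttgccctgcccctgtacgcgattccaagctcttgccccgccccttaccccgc
Prdx1 (chr4:116685349-116685598, plus strand): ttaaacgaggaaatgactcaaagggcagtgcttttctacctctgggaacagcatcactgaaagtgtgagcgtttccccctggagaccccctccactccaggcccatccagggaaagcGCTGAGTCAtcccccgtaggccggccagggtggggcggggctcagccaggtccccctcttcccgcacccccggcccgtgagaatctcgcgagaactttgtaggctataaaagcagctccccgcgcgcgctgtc
Txnrd1 (chr10:82858956-82859205, plus strand): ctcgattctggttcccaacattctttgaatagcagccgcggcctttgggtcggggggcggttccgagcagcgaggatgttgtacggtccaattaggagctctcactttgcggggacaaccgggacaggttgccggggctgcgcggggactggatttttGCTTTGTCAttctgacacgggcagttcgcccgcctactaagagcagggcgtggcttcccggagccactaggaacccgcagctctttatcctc
Sod1 (chr16:90220512-90220761, plus strand): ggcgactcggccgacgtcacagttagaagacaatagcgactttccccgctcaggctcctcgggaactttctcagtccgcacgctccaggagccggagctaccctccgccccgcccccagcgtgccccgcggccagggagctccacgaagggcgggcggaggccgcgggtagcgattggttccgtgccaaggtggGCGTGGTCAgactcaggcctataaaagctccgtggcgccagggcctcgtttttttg
Cat (chr2:103485154-103485403, minus strand): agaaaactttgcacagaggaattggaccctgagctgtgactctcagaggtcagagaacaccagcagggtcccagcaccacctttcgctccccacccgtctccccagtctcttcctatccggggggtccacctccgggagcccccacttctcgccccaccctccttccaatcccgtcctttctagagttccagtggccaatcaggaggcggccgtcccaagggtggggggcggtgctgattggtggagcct
The match begins 240 bases before the start in Nfe2l2, 133 in Prdx1, 92 in the second window of Txnrd1 and 56 in Sod1. The windows of Cat, Gpx1, Gpx4 and Sod2 do not contain these letters, which says nothing of elements elsewhere. Of the genes with a match, Prdx1 and Txnrd1 were called higher in LDN against HDN and Sod1 and Nfe2l2 were not, and of those without one, Cat and Gpx1 were called higher and Gpx4 and Sod2 were not. Among 20 other NRF2 target genes with a window, 7 held the letters.

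**Figure D2:**
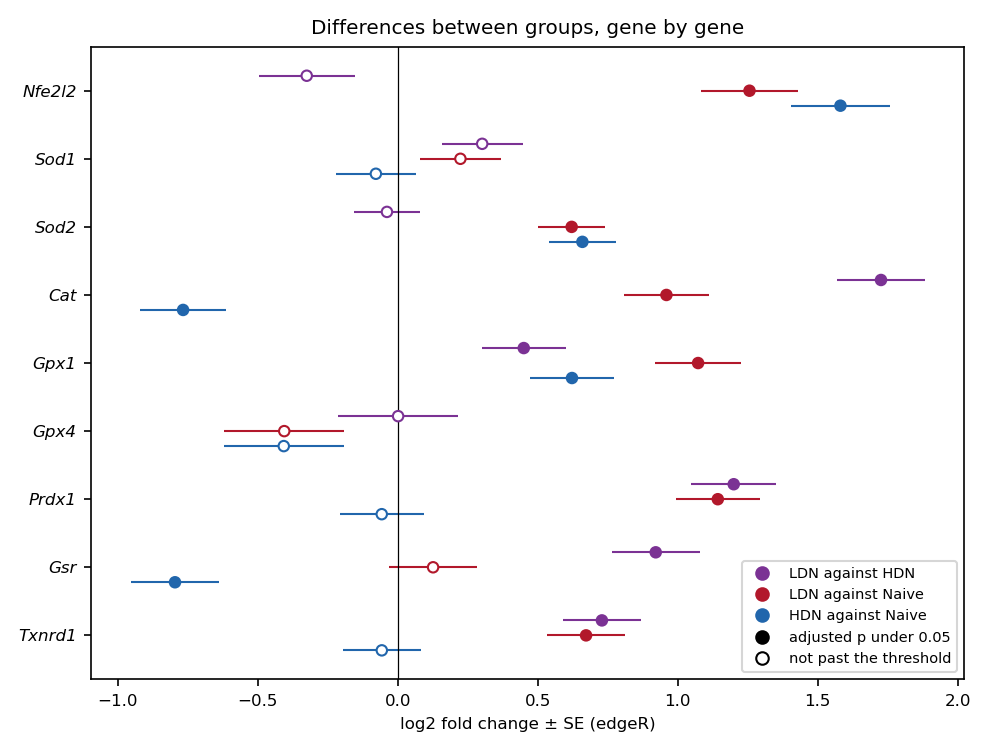
Log2 fold changes ± SE from edgeR for each gene in LDN against HDN, LDN against Naive and HDN against Naive; filled points passed an adjusted p of 0.05 over 10604 genes and open points did not. Cat and Gsr lie right of zero for LDN against HDN and left of zero for HDN against Naive, and Nfe2l2 lies far right of zero only where blood is set against marrow.

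Of the superoxide dismutases, Sod1 encodes the copper and zinc enzyme of the cytosol (chromosome 16, 90220754 to 90226329 on the plus strand in GRCm38). None of its differences between groups passed with TMM scaling, all libraries and no block. Sod1 stood at 43.1, 45.3, 34.4 and 34.4 CPM in LDN 3, 4, 5 and 7, at 31.8, 39.4, 30.5 and 25.9 CPM in HDN 3, 4, 5 and 7 and at 35.8, 33.3, 34.1 and 31.5 CPM in Naive 1 to 4. LDN 3 and LDN 4 were above every HDN and Naive library, and the others overlapped. The log2 fold change was 0.30 ± 0.14 in LDN against HDN (adjusted p = 0.102), 0.22 ± 0.14 in LDN against Naive (adjusted p = 0.207) and -0.078 ± 0.14 in HDN against Naive (adjusted p = 0.664). With the replicate block the LDN against HDN difference passed at 0.26 (adjusted p = 0.0426), with LDN the higher in all 4 numbers (0.44, 0.20, 0.17 and 0.41), and it passed without HDN 4 at 0.42 (adjusted p = 0.0203). Sod1 overlaps Scaf4 on the opposite strand in GENCODE M21, and the strand setting of the counting is not given in the sources used here.

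Sod2 encodes the manganese dismutase of mitochondria, a gene known to respond to inflammatory cytokines (chromosome 17, 13006846 to 13040063 on the plus strand in GRCm38). Both blood groups were above marrow and overlapped each other. The values were 27.97, 29.5, 27.02 and 29.8 CPM in LDN 3, 4, 5 and 7, 28.6, 34.2, 28.7 and 25.8 CPM in HDN 3, 4, 5 and 7 and 20.1, 17.1, 18.5 and 18.6 CPM in Naive 1 to 4. Every LDN and HDN library exceeded every Naive library, and LDN lay inside the range of HDN. Sod2 was 1.54-fold higher in LDN against Naive (0.62 ± 0.12, adjusted p = 0.000627) and 1.58-fold higher in HDN against Naive (0.66 ± 0.12, adjusted p = 0.000306). LDN against HDN gave -0.038 ± 0.12 (adjusted p = 0.816).

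Cat, which encodes catalase, the peroxisomal enzyme that splits hydrogen peroxide without drawing on glutathione or thioredoxin, showed the largest difference between the blood fractions among these genes (chromosome 2, 103453849 to 103485160 on the minus strand in GRCm38). Its level was 41.3, 41.7, 41.7 and 40.6 CPM in LDN 3, 4, 5 and 7, 14.6, 13.6, 12.4 and 9.39 CPM in HDN 3, 4, 5 and 7 and 17.8, 20.4, 25.6 and 21.2 CPM in Naive 1 to 4. The groups did not overlap, in the order LDN, Naive, HDN, and the LDN libraries were close together, with a coefficient of variation of 1.20%, against 18.01% in HDN and 15.3% in Naive. At 816 to 989 reads in LDN, counting alone would on average spread libraries more widely. The closeness of LDN therefore cannot be read as even expression. Cat was 3.31-fold higher in LDN against HDN (1.73 ± 0.16, adjusted p = 2.59e-06) and 1.94-fold higher in LDN against Naive (0.96 ± 0.15, adjusted p = 0.000129). HDN was 1.70-fold lower than Naive (-0.77 ± 0.15, adjusted p = 0.000673). Marrow therefore lay between the fractions, unlike for Nfe2l2 and Sod2, where it lay below both. HDN 7 was the lowest HDN library, and without it LDN against HDN was 1.61 (adjusted p = 3.39e-06).

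Gpx1 encodes the cytosolic selenoenzyme that reduces hydrogen peroxide with glutathione (chromosome 9, 108338903 to 108340343 on the plus strand in GRCm38), and it was by far the most abundant of these transcripts. Per kilobase of the longest coding transcript in GENCODE M21 it stood at 1330.0 ± 62.6 CPM in LDN, 973 ± 189 CPM in HDN and 632 ± 87.2 CPM in Naive. The next was Gsr, at 154 ± 15.3 CPM per kilobase in LDN, 81.3 ± 18.3 in HDN and 141 ± 10.3 in Naive. Those genes also ranked first and second by merged exon length, while the order of the lower genes depends on the length chosen and the annotation used by the authors is not given. Without scaling by length, Gpx1 was at 1331, 1485, 1430.0 and 1456 CPM in LDN 3, 4, 5 and 7, at 1127, 1193, 1109 and 744 CPM in HDN 3, 4, 5 and 7 and at 814, 665, 622 and 611 CPM in Naive 1 to 4. LDN was above HDN in every library, and HDN above Naive except for HDN 7, which was below Naive 1. Gpx1 was 2.10-fold higher in LDN against Naive (1.07 ± 0.15, adjusted p = 4.94e-05), and 1.54-fold higher in HDN against Naive (0.62 ± 0.15, adjusted p = 0.00286). In LDN against HDN the difference was 0.45 ± 0.15 (adjusted p = 0.0256), and its call rests on single libraries. It missed the threshold without LDN 4 (0.38, adjusted p = 0.0755), LDN 5 (0.40, adjusted p = 0.0651) or LDN 7 (0.38, adjusted p = 0.0738), and passed without HDN 7 (0.32, adjusted p = 0.03).

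Gpx4, the selenoenzyme that reduces lipid peroxides in membranes and guards against ferroptosis (chromosome 10, 80047166 to 80056439 on the plus strand in GRCm38), had no difference that passed with TMM scaling and all libraries. It stood at 23.05, 35.2, 24.9 and 31.5 CPM in LDN 3, 4, 5 and 7, at 24.6, 41.96, 25.5 and 22.4 CPM in HDN 3, 4, 5 and 7 and at 48.2, 38.1, 33.96 and 31.4 CPM in Naive 1 to 4. HDN 4 was far above the other HDN libraries, and all groups overlapped. The log2 fold change was 0.0017 ± 0.21 in LDN against HDN (adjusted p = 0.996), -0.40 ± 0.21 in LDN against Naive (adjusted p = 0.128) and -0.41 ± 0.21 in HDN against Naive (adjusted p = 0.118). The comparisons with Naive turned on single libraries and on the scaling. HDN against Naive passed without HDN 4 (-0.65, adjusted p = 0.00745) and LDN against Naive without LDN 4 (-0.57, adjusted p = 0.0468). Scaled without the 20 most abundant genes, Gpx4 was lower against Naive in LDN (-0.68, adjusted p = 0.0111) and in HDN (-0.56, adjusted p = 0.03). GENCODE M21 lists a pseudogene, Gpx4-ps2, and whether the counting could divide reads between them is not given.

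Prdx1 encodes a peroxiredoxin of the cytosol that reduces peroxide through its own cysteines and is recharged by thioredoxin (chromosome 4, 116685544 to 116700822 on the plus strand in GRCm38). It was higher in LDN than in both other groups. The values were 37.7, 48.5, 38.2 and 42.4 CPM in LDN 3, 4, 5 and 7, 17.6, 23.6, 15.6 and 15.7 CPM in HDN 3, 4, 5 and 7 and 19.2, 18.7, 19.9 and 17.6 CPM in Naive 1 to 4. All LDN libraries were above all others, and HDN and Naive overlapped. Prdx1 was 2.30-fold higher in LDN against HDN (1.20 ± 0.15, adjusted p = 3.56e-05) and 2.21-fold higher in LDN against Naive (1.14 ± 0.15, adjusted p = 2.61e-05). HDN against Naive was -0.057 ± 0.15 (adjusted p = 0.762).

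The enzymes that recharge the peroxidases both stood higher in LDN than in HDN. Gsr encodes glutathione reductase (chromosome 8, 33652523 to 33698163 on the plus strand in GRCm38), and was at 375, 462, 428 and 383 CPM in LDN 3, 4, 5 and 7, at 234, 247, 244 and 145 CPM in HDN 3, 4, 5 and 7 and at 402, 340.3, 395 and 372 CPM in Naive 1 to 4. LDN and Naive overlapped, and every HDN library was below both. Gsr was 1.89-fold higher in LDN against HDN (0.92 ± 0.16, adjusted p = 0.000396) and 1.73-fold lower in HDN against Naive (-0.79 ± 0.16, adjusted p = 0.000624). LDN against Naive gave 0.13 ± 0.16 (adjusted p = 0.519). HDN 7 stood apart at the low end, and without it LDN against HDN was 0.77 (adjusted p = 8.01e-05).

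Txnrd1 encodes the cytosolic thioredoxin reductase, also a selenoenzyme (chromosome 10, 82833951 to 82897712 on the plus strand in GRCm38). Like Prdx1 it was higher in LDN than in either of the other groups. It stood at 116, 93.6, 128 and 94.9 CPM in LDN 3, 4, 5 and 7, at 76.5, 59.9, 71.6 and 53.3 CPM in HDN 3, 4, 5 and 7 and at 64.7, 63.6, 72.8 and 70.6 CPM in Naive 1 to 4. No LDN library reached down to the other groups, and HDN and Naive overlapped. Txnrd1 was 1.66-fold higher in LDN against HDN (0.73 ± 0.14, adjusted p = 0.000951), 1.59-fold higher in LDN against Naive (0.67 ± 0.14, adjusted p = 0.00114), and at -0.057 ± 0.14 in HDN against Naive (adjusted p = 0.747). Eid3 lies within the same stretch and on the same strand in GENCODE M21, so the counts of this gene may share reads with it.

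Sorted by their order of levels, these genes fell into several patterns. Prdx1 and Txnrd1 were high in LDN, with HDN and Naive not distinguished by the test. Cat ran LDN, Naive, HDN and Gpx1 ran LDN, HDN, Naive, each step passing the test. Gsr was low in HDN, with LDN and Naive not distinguished. Nfe2l2 and Sod2 were high in both blood groups, and LDN against HDN did not pass for either with TMM scaling, all libraries and no block. Sod1 and Gpx4 had no step that passed in that fit.

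Since the replicate numbers appear to pair the blood fractions, the log2 ratio of LDN to HDN was also taken within each number. It was 1.50, 1.62, 1.74 and 2.11 for Cat, 1.10, 1.04, 1.29 and 1.43 for Prdx1 and 0.68, 0.90, 0.81 and 1.40 for Gsr in numbers 3, 4, 5 and 7. For Txnrd1 it was 0.60, 0.64, 0.84 and 0.83, and for Gpx1 0.24, 0.32, 0.37 and 0.97. All 5 genes called higher in LDN were higher in 4 of 4 numbers. That had to be so, since all their LDN libraries lay above all their HDN libraries. Number 7, whose HDN library had the lowest HDN value for 7 of the 9 genes, gave the largest ratio for Cat, Prdx1, Gsr and Gpx1. For Sod2 (-0.032, -0.21, -0.087 and 0.21) and Gpx4 (-0.093, -0.25, -0.036 and 0.49), number 7 lay above zero and the other numbers below.

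**Figure D3:**
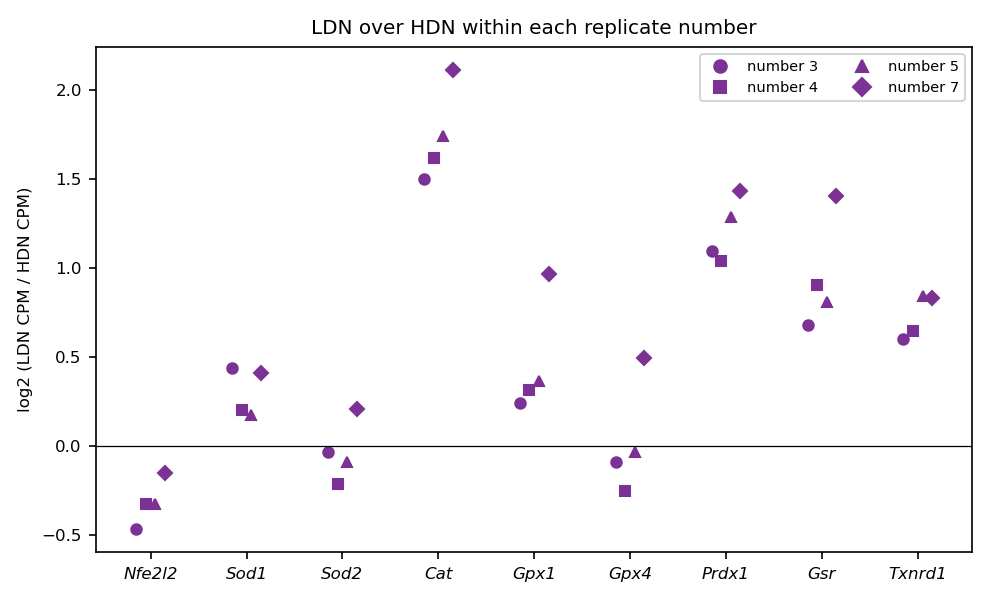
Log2 ratio of LDN CPM to HDN CPM within each replicate number (3, 4, 5 and 7) for Nfe2l2 and 8 antioxidant enzyme genes; each point is 1 pair of libraries. Cat, Prdx1, Gsr, Txnrd1, Gpx1 and Sod1 lie above zero in 4 of 4 numbers and Nfe2l2 below zero in 4 of 4. For Cat, Prdx1, Gsr, Txnrd1 and Gpx1 this follows from LDN libraries that all lie above the HDN libraries.

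The surrounding pathway was described with lists of other genes, which exclude the 9 above. Beside these genes, a value given before an adjusted p, or alone in parentheses, is a log2 fold change. The relatives of these enzymes had 4 tested genes of 11, and 4 were higher and 0 lower in LDN against HDN, beside 26.0% and 20.3% of all genes. Prdx2, a cytosolic peroxiredoxin, stood at 11.4 ± 3.04 CPM in LDN, 3.69 ± 1.19 CPM in HDN and 3.86 ± 1.30 CPM in Naive, and was higher in LDN against HDN (1.62, adjusted p = 0.000821) and against Naive (1.57, adjusted p = 0.00071). This order was that of Prdx1. Prdx6, a peroxiredoxin with a single catalytic cysteine, stood at 88.7 ± 19.9 CPM in LDN, 43.05 ± 11.6 CPM in HDN and 146 ± 5.02 CPM in Naive. It was higher in LDN against HDN (1.04, adjusted p = 0.000512) but lower than Naive in LDN (-0.72) and in HDN (-1.76). The other 2 relatives, named after their values were seen, were at or near the floor in HDN and passed the filter on low counts through the other groups, so their calls say little. Gpx3 stood at 7.39 ± 3.32 CPM in LDN, 0.324 ± 0.235 CPM in HDN and 2.07 ± 0.243 CPM in Naive, and Prdx4 at 1.36 ± 0.419 CPM in LDN, 0.115 ± 0.0926 CPM in HDN and 1.14 ± 0.184 CPM in Naive. Against Naive the list had 2 genes higher and 1 lower in LDN, beside 27.4% and 26.8% of all genes, and 0 higher and 3 lower in HDN, beside 30.0% and 29.9%.

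In the thioredoxin and glutaredoxin list, 5 of 13 tested genes were higher and 1 lower in LDN against HDN, beside 26.0% and 20.3% of all genes. Srxn1, which encodes sulfiredoxin, the enzyme that rescues overoxidized peroxiredoxins, stood at 15.3 ± 1.67 CPM in LDN, 9.37 ± 2.30 CPM in HDN and 2.54 ± 1.12 CPM in Naive, with each step past the threshold (0.71 in LDN against HDN, adjusted p = 0.0364). Glrx, the cytosolic glutaredoxin gene, stood at 777 ± 89.9 CPM in LDN, against 471 ± 116 CPM in HDN (0.72, adjusted p = 0.00424). The methionine sulfoxide reductase genes Msra (0.75) and Msrb2 (1.28) were higher in LDN against HDN as well, as was Txnl1 (0.47), named after its value was seen. Txnip, whose product binds and inhibits thioredoxin, was the gene that was lower, at 1398 ± 271 CPM in LDN, against 2527 ± 562 CPM in HDN (-0.85, adjusted p = 0.00148). Against Naive, 3 genes were higher and 3 lower in LDN, beside 27.4% and 26.8% of all genes, and 2 higher and 4 lower in HDN, beside 30.0% and 29.9%.

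For glutathione synthesis and turnover, 4 of 11 tested genes were higher and 3 lower in LDN against HDN, near the 26.0% and 20.3% of all genes, with a median log2 fold change of -0.051. Ggt1, which encodes the surface enzyme that breaks down glutathione outside the cell, stood at 833 ± 99.7 CPM in LDN, 295 ± 99.8 CPM in HDN and 8.01 ± 1.25 CPM in Naive, a log2 difference of 6.70 for LDN and 5.20 for HDN against Naive and of 1.50 between the fractions (adjusted p = 0.000163). Chac2, whose product degrades glutathione in the cytosol, was higher in LDN against HDN (2.25, adjusted p = 3.43e-06). Genes of synthesis went opposite ways. Gss, glutathione synthetase, was higher in LDN against HDN (1.26, adjusted p = 0.00109), and Gclc, the catalytic subunit of glutamate-cysteine ligase, lower (-0.79, adjusted p = 0.0211), both below 8 CPM on average in every group. Named after their values were seen, Gclm, the modifier subunit of that ligase, was higher at 182 ± 13.97 CPM in LDN, against 114 ± 11.6 CPM in HDN (0.67, adjusted p = 0.00061), and Ggt5 (-0.75) and Chac1, relatives of Ggt1 and Chac2, were lower, Chac1 at 0.291 ± 0.0462 CPM in LDN, close to the floor. Oplah, 5-oxoprolinase, was at -0.81 (adjusted p = 0.0552). Against Naive, 6 genes were higher and 2 lower in LDN, beside 27.4% and 26.8% of all genes, and 6 and 2 in HDN, beside 30.0% and 29.9%.

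Of 6 tested glutathione S-transferase genes among 17, 4 were higher and 0 lower in LDN against HDN, beside 26.0% and 20.3% of all genes. Against Naive 2 were lower in LDN, beside 26.8% of all genes, and 4 in HDN, beside 29.9%, with 0 higher in either. The microsomal enzyme gene Mgst1 stood at 438 ± 35.6 CPM in LDN, 269 ± 52.02 CPM in HDN and, in Naive, 592 ± 53.4 CPM (0.71 in LDN against HDN, adjusted p = 0.00133). Mgst2 followed the same order, at 33.1 ± 6.56 CPM in LDN, 7.06 ± 3.72 CPM in HDN and, in Naive, 86.02 ± 10.7 CPM (2.23, adjusted p = 0.000267). Gstm1, whose close relatives make its counts uncertain, was at 1.82 in LDN against HDN with overlapping libraries (adjusted p = 0.00153). The remaining gene was Mgst3, named after its value was seen, at 0.636 ± 0.201 CPM in LDN, against 0.147 ± 0.0711 CPM in HDN, where it lay about at the floor.

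Among genes that control NRF2, 3 of 13 were higher and 2 lower in LDN against HDN, no larger a share than the 26.0% and 20.3% of all genes. Keap1, the gene of its inhibitor, stood at 44.2 ± 7.50 CPM in LDN, 29.2 ± 9.27 CPM in HDN and 38.9 ± 3.30 CPM in Naive, and was higher in LDN against HDN with overlapping libraries (0.59, adjusted p = 0.0206). The small MAF genes went opposite ways between the fractions. Mafg was at 78.98 ± 6.43 CPM in LDN, against 41.6 ± 3.87 CPM in HDN (0.92, adjusted p = 3.97e-05), below the 148 ± 18.6 CPM of Naive, and Mafk at 53.4 ± 6.16 CPM in LDN, against 81.5 ± 14.3 CPM in HDN (-0.61, adjusted p = 0.0252). Maff, another small MAF gene, named after its value was seen, was lower in LDN (-2.31, adjusted p = 0.000279). Its level was 0.914 ± 0.349 CPM in LDN and 4.58 ± 0.917 CPM in HDN. Nfe2, which encodes a relative of NRF2 that acts in blood cells, was higher in LDN against HDN (0.83, adjusted p = 0.000906), and Pgam5, a mitochondrial phosphatase that binds KEAP1, was at -0.68 (adjusted p = 0.113). Against Naive the list had 2 genes higher and 3 lower in LDN, beside 27.4% and 26.8% of all genes, and 2 higher and 4 lower in HDN, beside 30.0% and 29.9%.

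Other known targets of NRF2 were higher in LDN against HDN for 12 of 21 tested genes and lower for 4, with a median log2 fold change of 0.50, beside 26.0% and 20.3% of all genes. Nqo1, the quinone reductase often read as a sign of NRF2 activity, showed the largest difference, at 22.9 ± 3.64 CPM in LDN, 3.57 ± 1.17 CPM in HDN and, in Naive, 5.25 ± 0.586 CPM (2.68, adjusted p = 2.59e-06). G6pdx, which makes NADPH and may share reads with a gene copy, was at 2944 ± 466 CPM in LDN, 952 ± 301 CPM in HDN and, in Naive, 983 ± 67.4 CPM (1.63, adjusted p = 5.09e-05). Idh1, another source of NADPH in the cytosol, was at 1.27 (adjusted p = 2.51e-05), Trim16 at 1.45 (adjusted p = 0.000643), and Abcc1, an exporter of glutathione conjugates, at 1.35 (adjusted p = 0.000118). The targets lower in LDN were Cbr1 (-0.996), Gclc (-0.79), Osgin1 (-0.76) and Cbr3 (-0.59); Cbr1, Osgin1 and Cbr3 were named after their values were seen. Cbr3, which encodes a carbonyl reductase, stood at 31.01 ± 3.35 CPM in LDN and overlapped HDN at 46.6 ± 12.9 CPM, while Naive had 0.898 ± 0.310 CPM. Against Naive, where Nfe2l2 itself was higher in both blood groups, 8 targets were higher and 5 lower in LDN, beside 27.4% and 26.8% of all genes, and 7 higher and 10 lower in HDN, beside 30.0% and 29.9% of all genes. This list shares Gclc, Gclm and Slc7a11 with the glutathione list and Srxn1 with the thioredoxin list.

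Genes that build selenoproteins, the class to which Gpx1, Gpx4 and Txnrd1 belong, had 1 of 7 higher and 1 lower in LDN against HDN, beside 26.0% and 20.3% of all genes. Trnau1ap, which binds the selenocysteine transfer RNA, was lower with overlapping libraries (-0.72, adjusted p = 0.0363). Sepsecs, whose product makes selenocysteine on its transfer RNA, was higher (1.50, adjusted p = 0.00251) and is named after its value was seen. Sephs2, the selenophosphate synthetase gene, stood at 248 ± 17.3 CPM in LDN, 309 ± 59.7 CPM in HDN and, in Naive, 401 ± 79.1 CPM (-0.31 in LDN against HDN, adjusted p = 0.126). Secisbp2 (-0.27), Eefsec (0.64) and Scly (0.13) had adjusted p of 0.0625, 0.157 and 0.641. Against Naive, 5 of 7 genes were lower and 0 higher in LDN, beside 26.8% and 27.4% of all genes, and 2 lower and 0 higher in HDN, beside 29.9% and 30.0%.

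**Figure D4:**
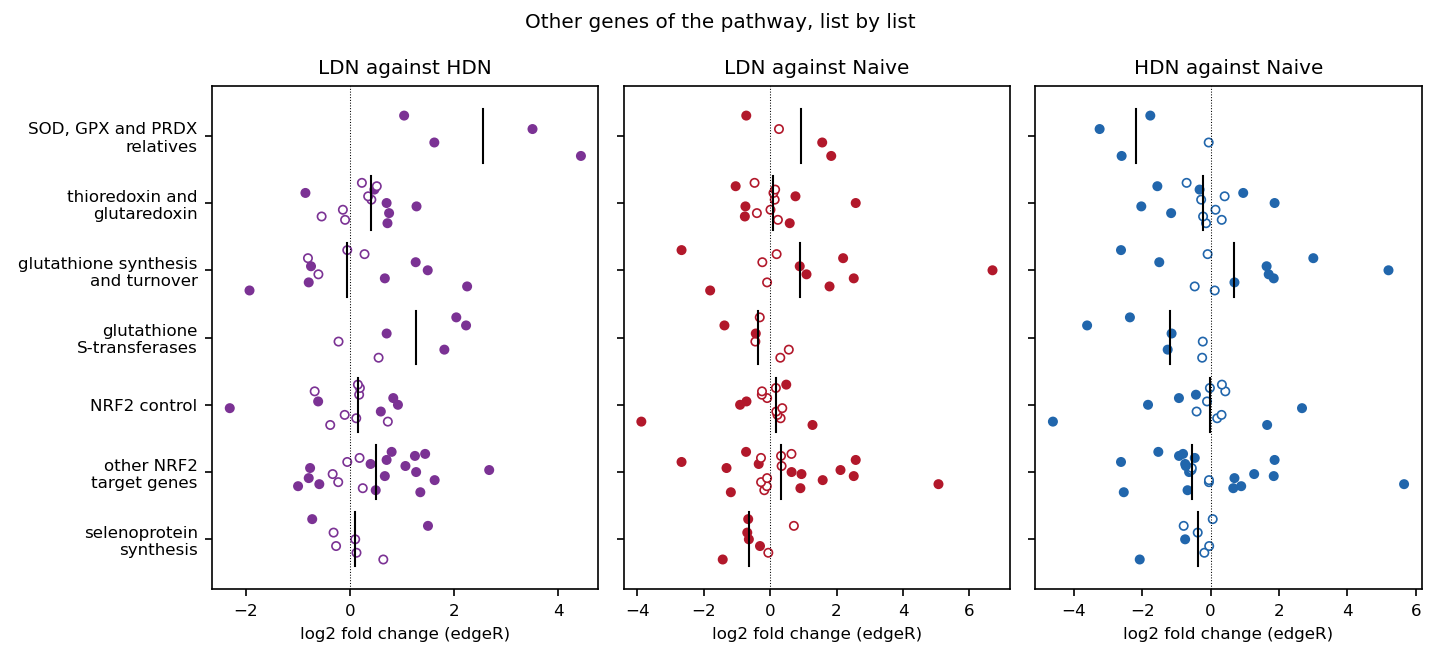
Log2 fold changes from edgeR of other antioxidant pathway genes in 7 lists, for LDN against HDN, LDN against Naive and HDN against Naive; each point is a gene, filled where the adjusted p was under 0.05, and the black bar is the list's median. In 6 of the 7 lists, glutathione synthesis being the other, the median lies right of zero in LDN against HDN and left of zero in HDN against Naive. HDN enters both comparisons with opposite sign, so these sides are not separate evidence. Gpx3, Prdx4 and Mgst3, at or near the floor in HDN, count in the medians. For NRF2 control the medians were 0.15 and -0.02, beside 0.02 and 0.04 over all genes.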

How the data were processed

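Per the submitters' processing notes, CASAVA 1.8.2, Trimmomatic and STAR were used on the reads. No source used here gives the build, annotation or strand setting. The deposited table holds raw counts per gene symbol, and 0 of its sample columns were left unmatched. The authors' 3 deposited DESeq2 1.16.1 tables hold, per the file headers, p-values, a Wald statistic (a score), log2 fold changes, their SE on the log2 scale and a mean normalized signal.

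Counts were tested with edgeR 4.0.16 in R 4.3.3, with limma 3.58.1 and DESeq2 1.42.0 as alternatives. Of 23621 symbols, 10604 passed edgeR's low-count filter by group. Libraries were scaled by TMM, and 1 robust quasi-likelihood model with group as its only term was fitted to all 12 libraries. The SE is the absolute log2 fold change divided by the square root of the F statistic. Intervals of counting error are not given, since reads without molecular identifiers are not independent. A count of 3 reads was worth 0.0954 to 0.153 CPM. The procedure was also run on simulated data in which few genes changed, equally up and down and in LDN alone. Far more genes were called here, so that run cannot show how the scaling holds in these data. The genes, lists and tests were chosen with earlier results of these data known. All 9 genes with a row are named, with up to 5 genes of each list, those with the largest difference in LDN against HDN among genes whose mean log2 CPM reached 1.

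LDN and HDN share the numbers 3, 4, 5 and 7 in their titles. Deviations from the group mean correlated at 0.31 to 0.76 between libraries of the same number, all above 0.1, and at -0.61 to 0.41 between others. The numbers were taken to pair the libraries, but the ranges overlap and the pairing is not certain. LDN 5 with HDN 3 (0.41) lay above the same-number pairs 3 (0.39) and 7 (0.31). Between replicates of a group the chi-square per gene was 3.26 to 182, so none was a library repeated. Alternatives were other scalings, filters, tools and sample sets, the replicate block and leaving out each library.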

Additional observations from a re-analysis of the deposited data

Results flagged for a closer look

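In 3 of 27 gene and group combinations, 1 of the 4 libraries stood far from the others by Dixon's criterion, with a gap of over 0.829 of the group's range, where chance alone gives about 1 in 20. Gpx4 in HDN had a ratio of 0.840, with HDN 4 at 41.96 CPM and the others at 24.6, 25.5 and 22.4 CPM. Gsr in HDN had 0.873, with HDN 7 at 145 CPM and the others at 234, 247 and 244 CPM. Nfe2l2 in Naive had 0.877, with Naive 1 at 50.3 CPM and the others at 69.5, 67.1 and 68.1 CPM.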

How the results depend on the processing

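Of 540 recomputed values, 9 genes in 3 comparisons under 20 alternatives, 504 kept their direction and their side of the threshold, 11 newly passed, 3 no longer passed and 22 changed sign; no called value changed sign. The 3 lost calls are those of Gpx1 in LDN against HDN given above. Gpx4 in LDN against HDN, 0.00 with TMM, was -0.048 with RLE scaling, -0.13 without the 20 most abundant genes, -0.036 without a filter, -0.015 with a CPM of at least 1 in 4 libraries, -0.042 with DESeq2, -0.040 with only the 2 groups and -0.024 with the replicate block, and -0.16 to 0.25 on leaving out 1 library. Without the 20 most abundant genes, LDN against Naive was -0.066 for Sod1 and -0.17 for Gsr, and Gpx4 passed against Naive in LDN (adjusted p = 0.0111) and HDN (adjusted p = 0.03). It also passed in LDN with only the 2 groups (adjusted p = 0.0467).

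Leaving out 1 library gave, in HDN against Naive, -0.19 to 0.016 for Sod1, -0.21 to 0.014 for Prdx1 and -0.14 to 0.035 for Txnrd1, and in LDN against HDN -0.12 to 0.046 for Sod2. The genes called lower in LDN, 0 with TMM, numbered 1 against HDN without the 20 most abundant genes and 1 with the replicate block, and 1 against Naive without the 20 most abundant genes and 1 with only the 2 groups; leaving out 1 library gave 0 to 1 in both. Over all genes, 1852 were higher in LDN against Naive without the 20 most abundant genes, against 2910.

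Naive shares only the numbers 3 and 4 with the blood groups, too few to show pairing. A replicate block there gave 0.12 for Sod1 and 0.045 for Prdx1 in HDN against Naive, and Sod1 passed in LDN against Naive (0.42, adjusted p = 0.0479). In LDN against HDN the replicate block changed the calls of Sod1 and Nfe2l2 among the 9 genes and no other. The causes were not tested. The smallest count behind any value was 246 reads.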
